A study of Mus musculus with 2 samples.

Results

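Inhibitory receptors and signalling brakes are the part of a macrophage's gene set that holds its own activation down. The 10 genes described here were chosen by name, with earlier results of these data known, and each matched 1 of the 55536 annotated genes. They are the surface receptors Sirpa, Lilrb4a, Pirb, Cd300a, Cd300lf and Siglece, the phosphatases Ptpn6 and Inpp5d, and Tollip and Sigirr, which act on receptors with a TIR domain. Their messages were read in macrophages grown from the bone marrow of C57BL/6J mice, as primary cells whose sex and age were not collected. The cells received lipid A at 100 ng/ml for 12 h, rested without it for 12 h, and then received 100 ng/ml again for 75 min. Lipid A is the part of bacterial lipopolysaccharide that TLR4 senses. RNA was taken from the cytosol, freed of ribosomal RNA and sequenced in 2 libraries, biological replicates 1 and 2 of 1 group that carry the same donor code. No untreated library was analysed here, so every value is a level under this treatment and none measures induction or tolerance. With 2 libraries of 1 group no test between conditions exists, and SDs cover only the spread between these 2 libraries, which may be technical.

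Most of the receptors share 1 mechanism. An inhibitory receptor carries in its cytoplasmic tail the immunoreceptor tyrosine-based inhibitory motif (ITIM), whose tyrosine is phosphorylated by Src family kinases such as Lyn. The phosphorylated motif recruits SH2-domain phosphatases: SHP-1, the product of Ptpn6, removes phosphate from proteins, and SHIP-1, the product of Inpp5d, removes phosphate from an inositol lipid made by PI 3-kinase. Many of these receptors have activating relatives with short tails that pair with the adaptors DAP12 (Tyrobp) or FcRγ (Fcer1g). Tollip binds ubiquitin and the IRAK kinases in the Toll-like receptor pathway, and Sigirr is an orphan receptor of the interleukin-1 receptor family that restrains interleukin-1 and Toll-like receptor signals.

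The coding sequences of the motifs are shown because they are the part of each receptor that recruits the phosphatases. A motif was taken as 6 residues: isoleucine, leucine, valine or serine, any residue, tyrosine, any pair of residues, then leucine, valine or isoleucine. It counted as cytoplasmic when it lay after the last window of 19 residues with a mean Kyte-Doolittle hydropathy of at least 1.6, a stand-in for the membrane span. Sequences are from the GENCODE M21 transcripts, each 5′ to 3′ on the coding strand with mm10 coordinates, and the capitals mark the tyrosine codon. All lie in coding exons, and the first Pirb window spans an exon junction.
Pirb, motif 1, minus strand, chr7:3713862-3714103: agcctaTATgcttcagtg
Pirb, motif 2, minus strand, chr7:3712786-3712803: gtgaccTATgcccagctg
Pirb, motif 3, minus strand, chr7:3712696-3712713: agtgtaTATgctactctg
Lilrb4a, motif 1, plus strand, chr10:51496021-51496038: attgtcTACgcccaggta
Lilrb4a, motif 2, plus strand, chr10:51496194-51496211: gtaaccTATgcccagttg
Sirpa, motif 1, plus strand, chr2:129629954-129629971: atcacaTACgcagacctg
Sirpa, motif 2, plus strand, chr2:129630077-129630094: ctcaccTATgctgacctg
Sirpa, motif 3, plus strand, chr2:129630149-129630166: tcagagTATgctagtgtc
Cd300a, motif 1, plus strand, chr11:114899846-114899863: gtggaaTATagcacattg
Cd300a, motif 2, plus strand, chr11:114901147-114901164: cttcacTATtcatccgtg
Cd300lf, motif 1, minus strand, chr11:115117648-115117665: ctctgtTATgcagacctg
Cd300lf, motif 2, minus strand, chr11:115117112-115117129: gtttcaTATgccgctctg
Siglece, motif 1, minus strand, chr7:43651585-43651602: atacatTATgcgaccctc

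All 6 receptors held at least 1 such motif: Pirb and Sirpa 3 each, Lilrb4a, Cd300a and Cd300lf 2 each, and Siglece 1. The receptors were chosen as inhibitory ones, so this is a description and not a result. Among all 21531 protein-coding genes with a complete coding part, 49.1% held the motif anywhere, 9.09% held it after such a window, and 26.1% of the 7493 genes with a window did. At least 2 such motifs were present in 6.89% of genes with a window. Of 23 activating relatives with a complete coding part, 20 had the window and 1 of these, Siglec15, held the motif. Of 26 other inhibitory receptors 13 held it after the window and 13 did not. The rule takes the tail to follow the window, so a tail that lies before the window is missed. Cd72, for example, held 4 matches and 0 of them after its window. Receptors with their tail at the start were not told apart. The 13 and 13 thus describe this rule and not which inhibitory receptors have a motif in the tail. The relatives named below (Pira2, Lilr4b, Sirpb1a, Sirpb1b, Sirpb1c, Cd300c2, Cd300lb, Cd300ld and Cd300ld3) held none after the window, where their tails ran for 5 to 37 residues against 69 to 174 in the 6 receptors. Sigirr also held 1 match after its window, in a tail that contains its TIR domain. A match is a run of letters and not a shown site of phosphorylation.

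Replicate 1 was the deeper library, with 64187226 expected counts assigned to annotated genes against 49429893 in replicate 2, and so has less counting error. The 10 members took 0.454% and 0.522% of those counts. Of 15 macrophage markers 14 were at 1 TPM or more in both replicates, with Lyz2 highest (2913 and 3115 TPM) and Cx3cr1 below (0.05 and 0.11). TPM divides each count by transcript length and then scales every library to 1 common sum, of which protein-coding genes held 29.9% and 26.2%. Among 56 matched markers of 6 other lineages 47 were not detected, 9 of them at 0 in both libraries. The 9 detected were Cd4, Cd79b, S100a8, S100a9, Mmp8, Csf3r, Bst2, Kdr and Vwf. Their summed levels ran from 0.17 and 0.33 TPM for mast cells and basophils to 454 and 502 for dendritic cells, of which Bst2, also an interferon-induced gene, made 454 and 502. Csf3r was the highest neutrophil marker (27.3 and 30.8), Cd4 the highest T and NK cell marker (16.7 and 14.1), Cd79b the highest B cell marker (1.07 and 1.73), Vwf the highest stromal and endothelial marker by its mean (3.13 and 1.51, beside Kdr at 2.34 and 2.12) and Kit the highest of mast cells and basophils (0.16 and 0.14). The part of other cells in the levels below was not tested, and in bulk RNA more cells of a type and more RNA per cell cannot be told apart.

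Among the 10 members 9 were detected, meaning 1 TPM or more in both replicates. The same rule took 16.7% of all annotated genes and 40.0% of protein-coding genes. Because the members were chosen with earlier results of these data known, the comparisons with other genes here are descriptions. Sirpa, Lilrb4a and Pirb were high (at least 100 TPM in both libraries, a band that holds 4.34% of detected genes). Ptpn6, Inpp5d, Cd300lf, Cd300a and Tollip were moderate (10 to under 100) and Siglece was low (1 to under 10). Sigirr was not detected. The median of the 10 members was 33.3 and 31.4 TPM, beside 7.82 and 7.17 for all 9302 detected genes. The order of the means was the same in both libraries for all 9 neighbouring pairs. Ranges of the 2 values overlapped only between Cd300a and Tollip, whose log2 ratio of TPM was 0.21 ± 0.27. That of Lilrb4a over Pirb was 0.43 ± 0.53, so neither pair differed beyond its spread. Inpp5d over Cd300lf (0.48 ± 0.44) and Tollip over Siglece (0.85 ± 0.76) exceeded their spread only slightly.

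**Figure D1:**
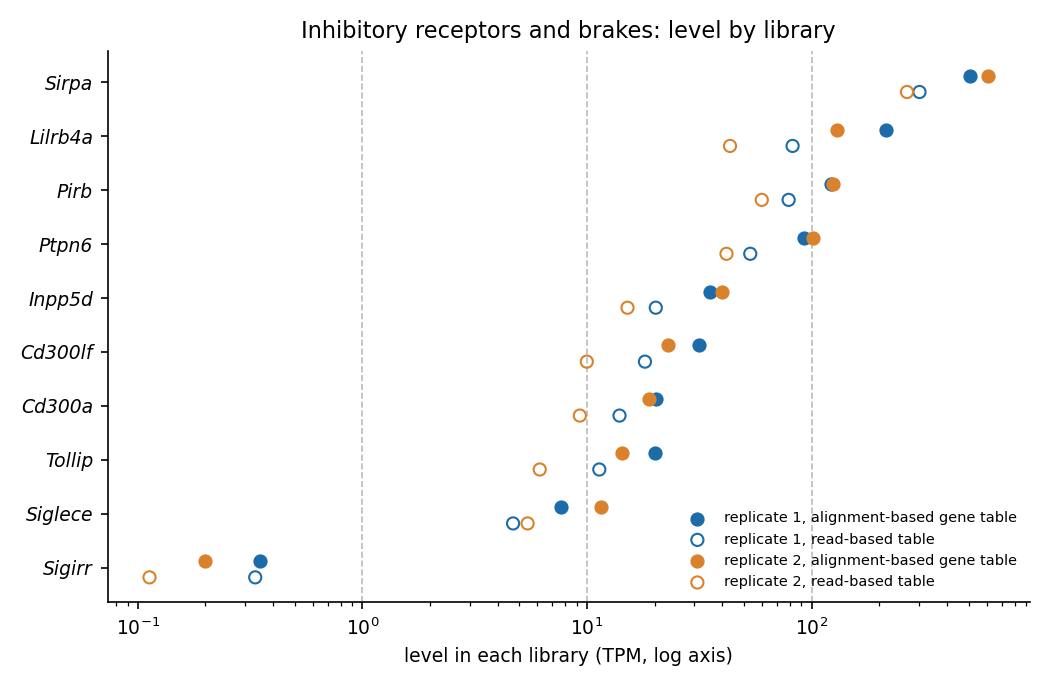
Level of each of the 10 members in TPM on a log axis, 1 point per library; filled points are the alignment-based gene table and open points the read-based table, and dashed lines mark 1, 10 and 100 TPM. Sirpa stands at the top with 508 and 608 TPM and Sigirr alone lies left of 1 TPM, while the open points lie below the filled ones for all 10 members. This offset is not particular to the members: Lyz2, at 2913 and 3115 TPM, was at 1619 and 1295 in the read-based table. The share of all genes with such an offset was not computed.

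Sirpa, the receptor for the "do not eat me" ligand CD47 (chr2:129592835-129632228, plus strand), was the highest member. It stood at 508 TPM in replicate 1 and 608 in replicate 2 (558 ± 71.2, SD, n = 2), which ranked it 56 of the 9302 detected genes. It made 56.2% and 66.5% of the summed TPM of the 6 receptors, which came to 904 and 915. Sirpa was thus the highest of the 6 receptors in each library.

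Lilrb4a, known as gp49B (chr10:51490956-51496611, plus strand), came next at 215 and 129 TPM (172 ± 60.4, n = 2). Replicate 1 lay higher, and relative to their mean these values were the widest apart among the 3 high members. Its level depends on how the annotation divides the locus. A second gene entry, Gm49339 (chr10:51480612-51496613), runs from the first exon of the neighbouring activating gene Lilr4b into Lilrb4a: the transcript Gm49339-203 has 9 exons, of which 8 lie inside Lilrb4a, and it encodes the same 335 residues as Lilrb4a-201. It shared 96.7% of the 31-base words of the leading Lilrb4a transcript. Gm49339 was listed at 146 and 139 TPM, and the deposited posterior SD of its count (447 and 296) was about that of Lilrb4a (449 and 296), against 36.5 and 29.3 for Pirb. Summed, the 2 entries stood at 361 and 268 TPM (314 ± 65.6, n = 2). Lilrb4a remained the second member by level with either value.

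Pirb, the paired immunoglobulin-like receptor that binds MHC class I (chr7:3711409-3720391, minus strand), was at 122 and 124 TPM (123 ± 1.44, n = 2). Relative to their mean these TPM values were the closest together among the members, before the median over genes is taken off. In the read-based table Lilrb4a lay above Pirb in replicate 1 (82.2 against 78.9) and below it in replicate 2 (43.3 against 59.9), so the order of these neighbours rests on the table. Similar genes of the same cluster share much of its sequence: 41.6% of the 31-base words of the Pirb coding part also occur in Pira2, and 42.5% in Gm14548.

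The remaining receptors were lower. Cd300lf (chr11:115116214-115133992, minus strand), which binds lipids such as ceramide and phosphatidylserine, stood at 31.4 and 22.9 TPM (27.1 ± 5.98, n = 2). Cd300a (chr11:114890041-114904654, plus strand), a receptor for phosphatidylethanolamine and phosphatidylserine on dying cells, was at 20.3 and 18.9 (19.6 ± 0.997, n = 2). Siglece (chr7:43651070-43660161, minus strand), a lectin for sialic acid, was at 7.67 and 11.6 (9.62 ± 2.75, n = 2). It was the lowest receptor in both libraries, and 42.2% of detected genes lay above it.

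Of the phosphatases, Ptpn6 (chr6:124720707-124738714, minus strand) was at 92.1 and 102 TPM (96.9 ± 6.89, n = 2). Inpp5d (chr1:87620312-87720507, plus strand) was at 35.3 and 39.8 (37.5 ± 3.21, n = 2). Their ratio was nearly the same in the 2 libraries: Ptpn6 exceeded Inpp5d by 1.38 and 1.35 on the log2 scale.

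Tollip (chr7:141874813-141918507, minus strand) was at 20.0 and 14.3 TPM (17.2 ± 4.02, n = 2). Sigirr (chr7:141091175-141100572, minus strand) was at 0.35 and 0.20 TPM (0.275 ± 0.106, n = 2), on 51 and 27 expected counts. Its counts were above 0 in both libraries, so some reads were assigned to it below the 1 TPM limit. Which cells these reads came from was not tested. Tollip alone of these 2 brakes was thus detected.

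Ratios within a library do not depend on how a library is scaled, and each is given here as log2 of TPM + 0.1 for the 2 libraries. Both phosphatases exceeded their widely expressed paralogues. Ptpn6 over Ptpn11, which encodes SHP-2, was 3.30 and 3.56 (3.43 ± 0.18, n = 2), or 10.8-fold, with Ptpn11 at 9.24 and 8.52 TPM. Inpp5d over Inppl1, which encodes SHIP-2, was 1.37 and 1.55 (1.46 ± 0.13), or 2.76-fold, with Inppl1 at 13.5 TPM in both. Each difference was larger than the spread between the libraries. Ptpn6 over Syk, the kinase of the opposing activating pathway, was 0.30 and 0.37 (0.34 ± 0.05). By counts that are not divided by length, a scale on which longer messages weigh more, this last ratio turned to −1.05 ± 0.03. On that scale Ptpn6 over Ptpn11 was 1.95 ± 0.12, Inpp5d over Inppl1 1.26 ± 0.13 and Ptpn6 over Inpp5d 0.57 ± 0.06. The TPM of Inpp5d includes a short retained-intron model, Inpp5d-203, with 25.5% and 25.2% of it on 149 and 129 expected counts.

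Inhibitory and activating relatives stood in different relations from family to family. Sirpa over the 3 Sirpb1 genes together was 7.15 and 7.99 (7.57 ± 0.59), with Sirpb1a, Sirpb1b and Sirpb1c summing to 3.47 and 2.29 TPM. By counts not divided by length it was 8.61 ± 0.60. Pirb over Pira2 was 1.30 and 1.63 (1.47 ± 0.23), with Pira2 at 49.5 and 40.1 TPM. Of the Pira symbols listed, 6 (Pira1, Pira6, Pira7, Pira11, Pira12 and Pira13) had no match in the annotation. Against Pira2, Gm15922, Gm15448, Gm14548 and Lilra6 together, 5 genes of the cluster that share 31.9% to 42.5% of the words of its coding part, Pirb was higher by 0.82 and 1.16 (0.99 ± 0.24), a comparison chosen after the values were seen. In the Cd300 family the direction was the opposite: Cd300a and Cd300lf summed to 51.7 and 41.8 TPM and the activating Cd300c2, Cd300lb, Cd300ld and Cd300ld3 to 220 and 193, a log2 ratio of −2.08 and −2.20 (−2.14 ± 0.09). By counts not divided by length the gap was smaller, at −0.69 ± 0.04. Cd300ld3 alone was at 129 and 115 TPM.

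The relation of Lilrb4a to Lilr4b turned with the gene entry used. Lilrb4a alone lay below Lilr4b (327 and 201 TPM) at −0.61 and −0.63 (−0.62 ± 0.02), and with Gm49339 added it lay above at 0.14 and 0.42 (0.28 ± 0.20). Since Gm49339-203 begins in the first exon of Lilr4b, the entries can divide reads of both genes, and no direction is read here.

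The 6 receptors together stood at −1.11 and −0.93 (−1.02 ± 0.12) against the summed adaptors Fcer1g and Tyrobp, whose TPM came to 1948 and 1747. By counts not divided by length the sign was the other way (1.57 ± 0.21). Against Ptpn6 the 6 receptors stood at 3.29 and 3.17 (3.23 ± 0.09), or 9.38-fold. Sirpa over its ligand Cd47, itself at 121 and 131 TPM, was 2.06 and 2.21 (2.14 ± 0.11). Tollip was near its partner Tom1 (0.44 and 0.07) and near Irak3, the inactive IRAK kinase (0.47 and −0.05). Both ratios were within or close to the spread between libraries on the TPM scale, and the second had a different sign in each. By counts not divided by length Tollip over Tom1 was 1.08 ± 0.28.

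**Figure D2:**
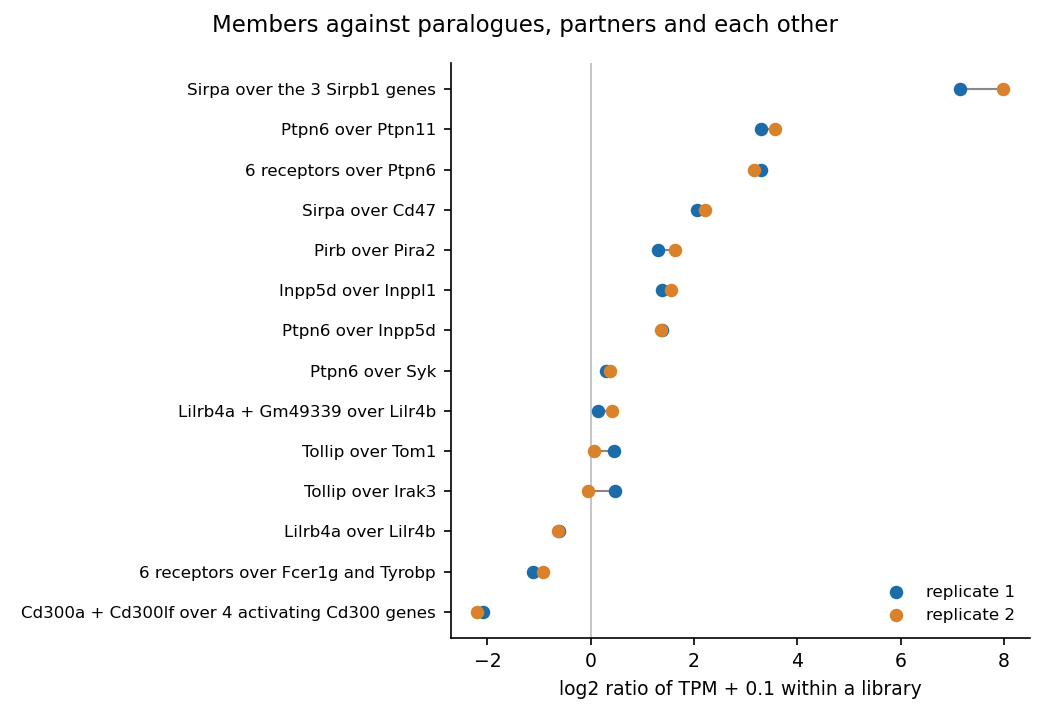
Log2 ratio of TPM + 0.1 within each library, 1 point per library joined by a line, for 13 comparisons of members with paralogues, partners and each other and for Lilrb4a summed with Gm49339. Sirpa over the Sirpb1 genes lies farthest right (7.15 and 7.99), the Cd300 comparison farthest left (−2.08 and −2.20), and Lilrb4a over Lilr4b changes side of 0 when Gm49339 is added.

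The replicates differed for some members. Differences are log2 ratios of replicate 2 to replicate 1 of TPM + 0.1 less the median over detected genes, which was −0.138. Siglece was higher in replicate 2 by 0.72, or 1.65-fold, and Lilrb4a was lower by 0.59, or 1.51-fold, just past the 1.5-fold mark. These 2 of 9 detected members passed 1.5-fold, beside 7.96% of all detected genes (4.22% higher and 3.73% lower in replicate 2). The next members were Sirpa (0.40) and Tollip (−0.34), well inside the mark. The read-based table put the median lower, at −0.53. Less that median, 8 of the 9 members kept the sign of their difference there, Cd300a (0.04 by TPM) being the exception. The share of all detected genes that kept their sign was not computed. The median size of the difference was 0.313 over the 9 members and 0.199 over all detected genes. Lilrb4a no longer passed when summed with Gm49339 (−0.29), by the read-based table (−0.39) or by TMM-scaled counts (−0.52). Siglece passed under each of these 2 other scalings (0.74 and 0.73), and on counts its library-scaled log2 ratio was 0.69 with an exact binomial interval of 0.59 to 0.80, which covers counting error only.

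Markers of the cells also differed between the libraries. The share of all detected genes past 1.5-fold was 7.96%. Of 14 detected macrophage markers 3 passed 1.5-fold: Adgre1, encoding F4/80 (358 and 706 TPM), Itgam (24.4 and 37.3) and Lgals3 (936 and 470). Of 4 detected neutrophil markers, S100a8 (2.21 and 4.35) and S100a9 (3.14 and 7.31) were past 1.5-fold and higher in replicate 2, as Siglece was. Mmp8 (1.98 and 1.48) and Csf3r (27.3 and 30.8) were not past it, and Ly6g was at 0 in both libraries. Of the other lineage markers, Cd79b (1.07 and 1.73) was higher and Vwf (3.13 and 1.51) lower in replicate 2 past the same mark. Whether these move with Siglece or Lilrb4a for a shared reason was not tested.

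**Figure D3:**
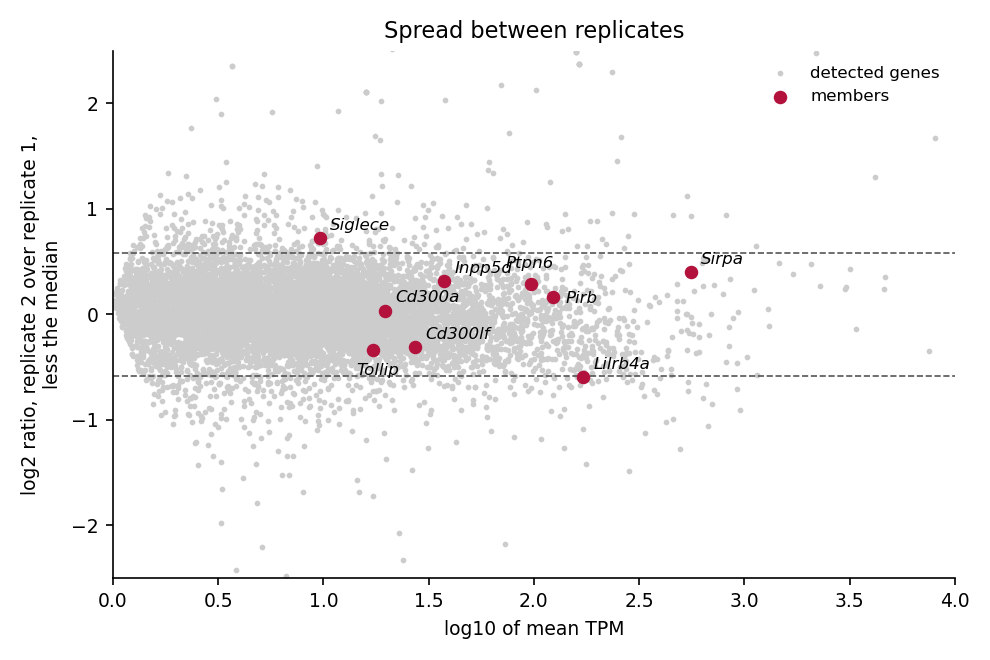
Log2 ratio of replicate 2 to replicate 1 less the median, against log10 of mean TPM, for the detected genes (grey) and the 9 detected members (red); dashed lines mark 1.5-fold and 24 genes lie outside the plotted range. Siglece lies above the upper line (0.72), Lilrb4a at the lower line (−0.59), and the other 7 members between them.

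The transcript tables divide each gene's TPM among annotated transcripts. A protein-coding transcript led 8 of the 10 members, beside 95.2% of the 8812 detected protein-coding genes. The leader was the same in both replicates for all 10, a share that was not computed over other genes. The exceptions were Pirb, led by a transcript annotated with a retained intron (the lead in 1.53% of genes), and Lilrb4a, led by one annotated for nonsense-mediated decay (1.65% of genes). The read-based table also had 8 of 10 led by a protein-coding transcript, beside 94.2% of genes, and shares of expected counts gave 8 of 10 beside 97.5%.

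**Figure D4:**
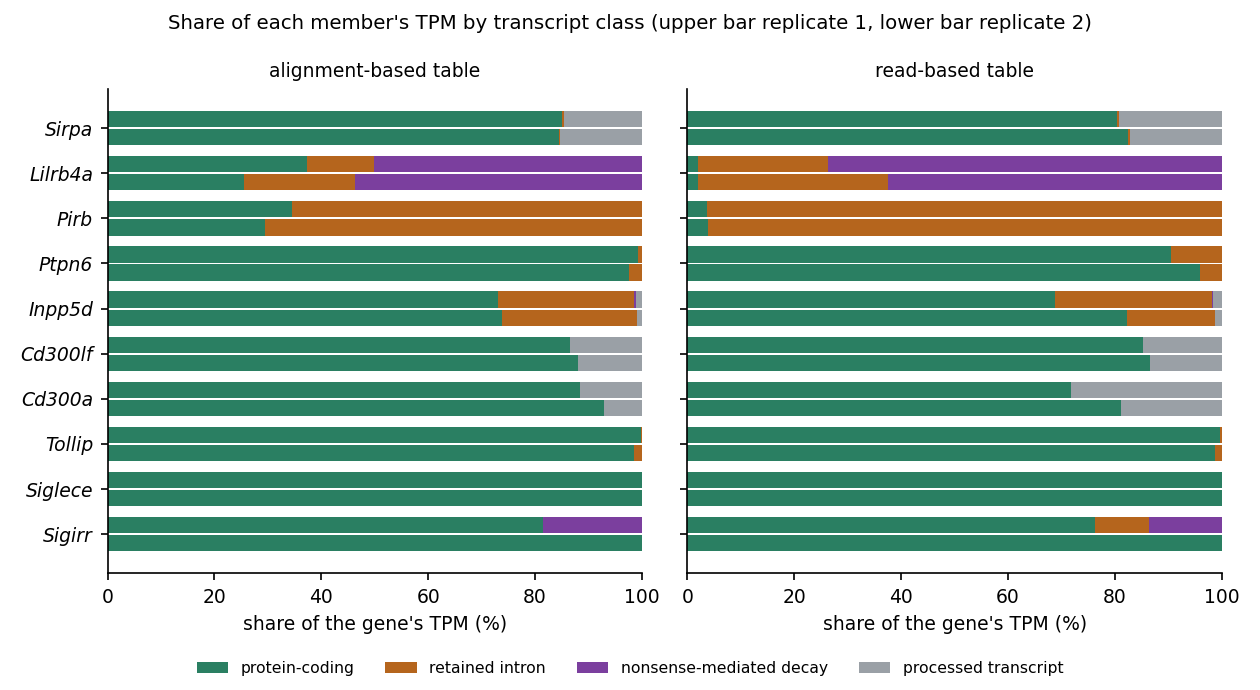
Share of each member's TPM by annotated transcript class, in percent, with 1 bar per replicate, from the alignment-based table (left) and the read-based table (right). Protein-coding transcripts (green) fill most of the bar for 8 members; for Pirb they hold 34.6% and 29.5% at left and 3.71% and 3.92% at right, and for Lilrb4a 37.3% and 25.5% at left and 2.03% and 1.94% at right.

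Pirb-202, the leader, held 45.4% and 49.3% of Pirb TPM, and the coding Pirb-201 held 34.6% and 29.5%. The 2 models are close: Pirb-202 contains 100% of the coding bases of Pirb-201, all 3 motif windows included, plus 227 intron bases in 1 run, and lacks 1128 bases that Pirb-201 has outside the coding part. Pirb-203, also a retained-intron model, held 14.1% and 16.4%. Retained-intron models together held 65.4% and 70.5%, and by the read-based estimates 96.3% and 96.1%. The 2 tables thus gave the same leader and different shares to the coding model.

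Lilrb4a-205, the leader of that gene, held 50.2% and 53.7% of its TPM and the coding Lilrb4a-202 27.7% and 25.3%. Lilrb4a-201, which encodes the whole receptor, had 8.42% and 0% there, with that protein carried by Gm49339-203 at 143 and 136 TPM. The annotated coding part of Lilrb4a-205 ends after 39 codons, and its first exon runs 5 bases further than that of Lilrb4a-201. Lilr4b has the same alternative end in Lilr4b-213, and the 18 bases up to it, shown with the 5 extra bases in capitals, are the same in both genes.
Lilrb4a, plus strand, chr10:51491039-51491056: ctgctataccttgGTGAG
Lilr4b, plus strand, chr10:51480741-51480758: ctgctataccttgGTGAG

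Transcripts with the longer first exon held 58.8% and 69.9% of the TPM of Lilrb4a transcripts with either end, but 97.4% and 97.3% in the read-based table. In Lilr4b the share was 59.6% and 56.6% (55.7% and 52.1% in the read-based table). With Gm49339 counted beside Lilrb4a the share was 33.5% and 30.9%, and 35.1% and 29.6% in the read-based table. Protein-coding transcripts of the 2 entries together held 61.9% and 63.6% of their TPM (58.7% and 62.2% in the read-based table). The lead of a decay transcript in Lilrb4a was thus tied to the gene entry: over both entries the highest transcript was the protein-coding Gm49339-203. These sums were chosen after the values were seen.

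Transcripts that encode motif windows held 85.0% and 84.4% of Sirpa TPM. Sirpa-214 led with 37.4% and 48.8%, and Sirpa-204 followed with 29.0% and 18.9%. They encode the same 509 residues, and their sum was steadier than either part (66.5% and 67.7%). Sirpa-201, with 13.3% and 11.7%, adds 4 residues between the hydrophobic window and the first motif. A processed transcript of 400 bases, Sirpa-207, held 13.8% and 14.5% of TPM on 1424 and 1408 of the gene's 166491 and 163684 expected counts. The coding bases that Sirpa-201 has and Sirpa-214 lacks are shown because they lie in the cytoplasmic tail.
Sirpa-201, plus strand, chr2:129627986-129627997: gtacagtctttg

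In the Cd300 pair the alternatives fell before the hydrophobic window and left the motifs alone. Cd300a-202 (318 residues) held 82.2% and 85.8% and Cd300a-201 (314 residues) 6.24% and 7.05%. Cd300lf had no clear leader: Cd300lf-203 held 31.5% and 36.5%, Cd300lf-202 29.4% and 27.4%, and Cd300lf-201 25.7% and 24.1%. The read-based table put Cd300lf-202 (32.4% and 29.2%) first by the mean and in replicate 1. In replicate 2 it put Cd300lf-201 (30.5% and 30.1%) first. The extra coding bases of the longer form of each gene are shown, for Cd300lf as those of Cd300lf-202 over Cd300lf-201.
Cd300a-202, plus strand, chr11:114894658-114894669: tttcatctccag
Cd300lf-202, minus strand, chr11:115124357-115124377: caatccaagtacccattacag

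Siglece-201, with the full tail and its motif, held 96.9% and 98.3% of Siglece TPM. Tollip-201 held 96.0% and 97.7%. Sigirr-203 led Sigirr with 64.6% and 74.4%, on 35.0 and 18.9 expected counts. The read-based table put the short Sigirr-204 (42.2% and 24.0%) first in replicate 1 and Sigirr-203 (19.2% and 39.2%) first in replicate 2. No lead is thus read from so few counts.

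Ptpn6-202 led its gene with 89.3% and 86.7%, and Ptpn6-201 held 3.94% and 3.82%. The transcripts have different first exons: Ptpn6-202 starts 5471 bases downstream of Ptpn6-201, and they encode 595 and 597 residues that differ at the start. The bases each alone codes from its first exon are shown, beginning with the start codon.
Ptpn6-202, minus strand, chr6:124732946-124732953: atggtgag
Ptpn6-201, minus strand, chr6:124738499-124738512: atgttgtcccgcgg

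Inpp5d was divided among several transcripts. Inpp5d-210 (1191 residues) led with 31.9% and 37.5%, and with Inpp5d-201 (1190 residues) it held 41.4% and 44.5%. Inpp5d-208 and Inpp5d-211 start 55927 bases downstream of Inpp5d-210 and encode 928 and 867 residues. They held 31.7% and 29.4%, but 9.90% and 7.10% in the read-based table, so the share of the shorter forms rests on the table. Inpp5d-203, a retained-intron model of 364 bases, held 25.5% and 25.2% of TPM on 149 and 129 of the 12775 and 11982 expected counts. Shares of TPM weigh short transcripts more than shares of counts do, by which the protein-coding transcripts of Inpp5d held 97.6% and 98.3%.

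Related genes were grouped in 8 lists that place the members in their pathways. Detection again means 1 TPM or more in both libraries, beside 16.7% of all annotated genes and 40.0% of protein-coding genes. Medians are over all matched genes of a list. Of 26 other inhibitory receptors 15 were detected, none of them high, and the median was 3.36 TPM in both libraries. The highest were Fcgr2b, the inhibitory Fc receptor (93.6 and 110), Clec12a (81.2 and 67.3), Milr1 (52.1 and 48.4), Lair1, the collagen receptor (44.0 and 46.6), Cd72 (44.4 and 40.6) and Clec4a2 (28.5 and 40.2). Sirpa, Lilrb4a and Pirb thus lay above all 26 by TPM of the alignment-based table. In the read-based table Fcgr2b (55.1 and 49.2) lay above Lilrb4a (82.2 and 43.3) in replicate 2. Pdcd1, Tigit and Ctla4, checkpoint receptors of lymphocytes, were at 0 in both.

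Among 23 matched activating relatives 12 were detected and 3 were high: Lilr4b (327 and 201), Clec4e, the receptor Mincle (243 and 209), and Cd300ld3. Trem2 was at 122 and 76.3, Cd300c2 at 65.0 and 57.7. Trem1 (0.08 and 0.05) and Siglec15 (0 in both) were among the lowest. The median of the list was 3.76 and 5.24 TPM. Past 1.5-fold between replicates were 3 of its 12 detected genes, and 4 of the 15 detected among the other inhibitory receptors, beside 7.96% of all detected genes.

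Of 14 adaptors and kinases that phosphorylate or oppose the motifs 13 were detected, with a median of 36.6 and 41.1 TPM. Fcer1g (1338 and 1258) and Tyrobp (610 and 488) led. Syk (74.6 and 78.6), Lyn (66.6 and 76.0) and Lcp2 (78.9 and 62.8) were lower. Src (3.86 and 3.76) and Fyn (2.89 and 2.64) were low, and Fgr (0.32 and 0.61) was the 1 gene not detected. None of the 13 passed 1.5-fold between replicates, beside 7.96% of all detected genes.

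Of 20 other effectors and phosphatases 18 were detected, led by the adaptor Grb2 (137 and 126), Ptprc, which encodes CD45 (84.1 and 94.6), Ptprj (53.6 and 66.5), Csk, the kinase that restrains Src family kinases (48.4 and 55.1), Ptpn18 (55.9 and 34.1) and Ptpn1 (29.7 and 29.1). By TPM Ptpn6 lay above every phosphatase of this list in both libraries, with 1 exception. The read-based table put Ptprc (48.9 and 42.3) just above Ptpn6 (53.3 and 41.8) in replicate 2. By expected counts not divided by length, Ptprc (41121 and 37849) and Ptprj (42455 and 43603.5) lay above Ptpn6 (19467.8 and 17244.8). Sh2d1a, an adaptor of lymphocytes, was at 0. In the inositol lipid pathway 16 of 17 genes were detected at a median of 11.3 and 10.9 TPM. Pik3r5 (59.0 and 50.8), a regulatory subunit of PI 3-kinase gamma, led, and Akt1 (32.9 and 29.7), Pik3r1 (27.2 and 20.9) and Pik3cd (13.95 and 22.25) were lower. Inpp5d exceeded the lipid phosphatase genes Inppl1, Inpp4a (10.7 and 12.3), Inpp5k (11.6 and 10.9), Inpp5b (7.93 and 7.69), Inpp5e (2.51 and 2.42) and Inpp4b (0.40 and 0.43), in both libraries.

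Ligands of the receptors were represented by 10 genes, of which 6 were detected. The MHC class I genes B2m (3720 and 3062), H2-K1 (1832 and 2314) and H2-D1 (1279 and 1631), whose products Pirb binds, were the highest, followed by Cd47, Rtn4, which encodes Nogo (91.1 and 82.7), and Thbs1, thrombospondin (71.1 and 77.9). Fn1, fibronectin, was near 0 (0.09 and 0.06), and the surfactant genes Sftpa1 and Sftpd were at 0.

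Of 23 other genes of the TIR pathway 19 were detected, at a median of 15.6 and 16.8 TPM. Most are known as brakes, but the list also holds genes with a part in signalling itself, such as Ly96, Tifa, Irak2 and Rnf31. Tnfaip3, which encodes the ubiquitin editor A20 (280 and 175), Cd180 (210 and 173), Socs3 (241 and 139), Il18bp (94.2 and 87.6), Il1rn, the interleukin-1 receptor antagonist (80.4 and 42.4), and Tnip1 (59.3 and 45.2) were highest. Past 1.5-fold between replicates were 3 of the 19, beside 7.96% of all detected genes. Socs3 and Il1rn were lower in replicate 2, as Lilrb4a was, and Nlrx1 (2.14 and 3.18) was higher. Tollip lay below all 6 in both libraries and close to Irak3 (14.4 and 14.8). The decoy receptor Il1r2 (0.35 and 0.34) and Il1rl1 (0.00 and 0.01), which encodes the interleukin-33 receptor ST2 and its soluble form, were not detected. Of 16 partners of Tollip and Sigirr 11 were detected, led by Tlr2 (85.0 and 86.3), Myd88 (53.4 and 48.4), Tlr4 (15.2 and 18.0) and Tom1 (14.7 and 13.7). The interleukin-1 and interleukin-18 receptor genes that Sigirr acts on were not detected in both libraries: Il1r1 at 0.03 and 0.05, Il1rap at 1.09 and 0.96, Il18rap at 0.03 and 0.06, and Il18r1 at 0 in both.

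**Figure D5:**
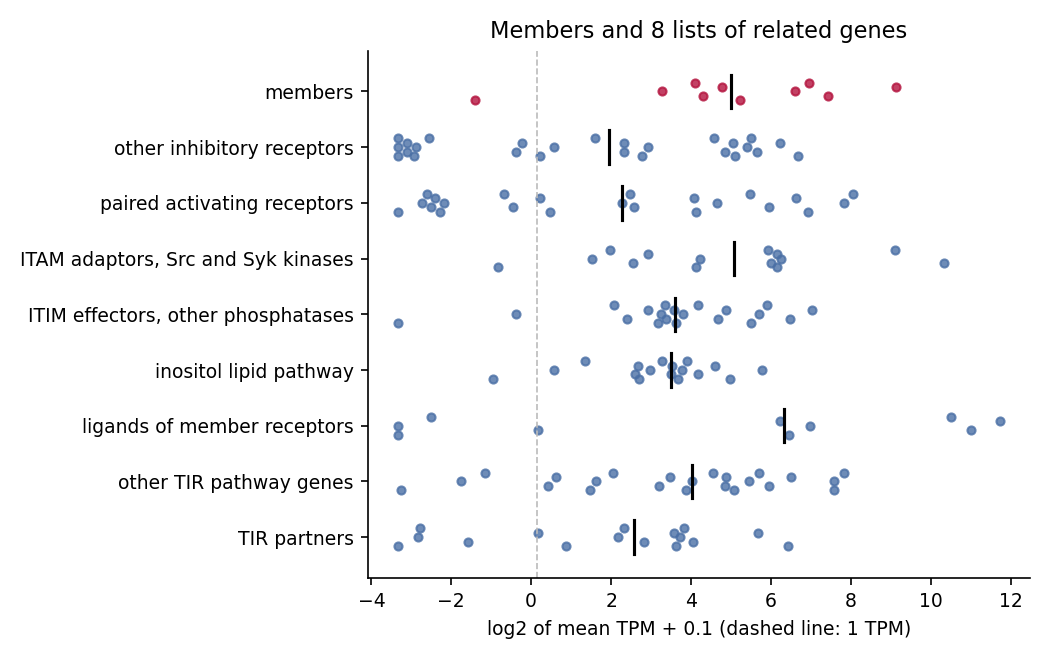
Log2 of mean TPM + 0.1 for the 10 members (red) and the genes of 8 related lists (blue), 1 point per gene, with the median of each list as a black bar and 1 TPM as a dashed line. The members have 1 gene left of the line, Sigirr. The other inhibitory receptors have 11 genes not detected and the activating relatives 11, but not all of these lie left of the line. Cd244a, Sirpb1b and Sirpb1c, with means of 1.075, 1.065 and 1.295 TPM, lie right of it because 1 of their values was below 1 TPM.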

How the data were processed

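The 2 libraries of 1 group were used as the labels group them. Per the labels the assembly is mm10, with 1 µg of RNA and a size range of 250 to 400; aligner and quantifier: not given in the sources used here. The authors deposited, per the file headers, expected counts, TPM, FPKM, the percent of a gene's TPM per transcript, and scores of uncertainty (posterior SD of the count) in alignment-based tables, and expected counts and TPM per transcript in a table made from the reads. IDs were matched to GENCODE M21; 26345 rows outside it held 0.110% and 0.112% of expected counts and were left out. The members and gene lists were chosen with earlier results of these data known.

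From these were computed the mean and SD over replicates, log2 ratios with a pseudocount of 0.1, read-based TPM summed per gene, 31-base words shared between transcripts and motif matches (Python 3.11.15, pandas 2.3.3). Named were all members, up to 6 highest and 3 lowest genes of each related list, and the genes used in ratios; lineage lists gave their highest and every detected gene. Gm49339, the similar genes of the Pirb cluster, lipid phosphatases beyond those ranks, Il1rap and markers that differed between replicates were named after their values were seen. Some genes of the lists are not reported here. A difference between replicates was called at 1.5-fold, with no p-value. TMM factors came from edgeR 4.0.16 on expected counts rounded to whole numbers. The calculations were tested on simulated data. Alternatives were the read-based table, TPM rescaled to protein-coding genes, FPKM, other limits and pseudocounts, TMM-scaled counts, each replicate left out, and, chosen after seeing the data, Lilrb4a summed with Gm49339 and Pirb against 5 similar genes. Strandedness was also not given, so reads of overlapping genes cannot be told apart by strand.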

Additional observations from a re-analysis of the deposited data

How the results depend on the processing

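Of the 10 members, 9 stayed detected by the read-based table, by TPM rescaled to protein-coding genes, by FPKM, at 5 TPM and with either replicate left out, and 10 had at least 10 expected counts in both libraries. The median member TPM of 32.3 moved to 15.9 in the read-based table, 115 after rescaling to protein-coding genes and 58.3 in FPKM, and ran from 31.4 to 33.3 with a replicate left out. The 2 members at least 1.5-fold apart became 1 by the read-based table, 1 by TMM-scaled counts, 1 with Lilrb4a and Gm49339 summed and 0 at 2-fold; with 1 replicate left out there is no such value. Of 9 neighbouring pairs 8 kept their order in the read-based table. Among 13 ratios, those that changed sign were Lilrb4a over Lilr4b with Gm49339 added (0.28), the 6 receptors over Fcer1g and Tyrobp (1.57) and Ptpn6 over Syk (−1.05) by counts not divided by length, and Tollip over Irak3 with a replicate left out (from −0.0511 without replicate 1 to 0.469 without replicate 2); apart from what the construction shows, the cause was not tested. Members led by a protein-coding transcript numbered 8 by every estimate of the share and 9 with Gm49339 counted with Lilrb4a. Over the 8 related lists 110 genes were detected, 106 by the read-based table and 91 at 5 TPM. No paired analysis was possible because the series has 1 group. Depth limits Sigirr, whose 51 and 27 counts fix no leading transcript.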
